A study of Xenopus laevis with 15 samples.

Results

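The mitosis genes examined here are 43 genes of chromosome segregation and cell division, taken by name: the kinases and cyclins that start mitosis, the spindle checkpoint, the chromosomal passenger complex, kinetochore proteins, spindle motors, cytokinesis proteins and proteins of mitotic chromosome structure. They were chosen with earlier results of these data known, so shares and medians over them are descriptive only. A count row was a member when its symbol in the authors' deposited table of lead 630 against control, without a final .L or .S, was one of these names. This gave 51 of 37018 count rows, for 39 of the 43 genes. Of the 39 genes, 12 had 2 rows and 27 had 1 row. The African clawed frog, Xenopus laevis, is allotetraploid, and many genes exist as a pair of homeologs marked .L and .S, each counted as a gene of its own. The genes cenpe, cenpf, birc5 and pttg1 were not found by the rule. All 51 rows passed the filter on low counts.

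A cell enters mitosis when the kinase Cdk1, bound to a B-type cyclin, is switched on by Cdc25 phosphatases. Chromosomes then condense and attach through kinetochores to a spindle of microtubules, and the spindle checkpoint holds the cell until all are attached, after which Cdc20 and the anaphase-promoting complex start separation and cytokinesis divides the cell. The mRNAs of many of these genes are known to rise as dividing cells approach mitosis and to be low in cells that have left the cell cycle. In a tadpole, dividing cells are found in many tissues, including the ciliary margin of the eye, the brain's ventricular zones, the gut and the skin.

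RNA was sequenced from whole bodies at 6 days post fertilization, with 3 individuals pooled per library and 5 libraries (A to E) in each of 3 groups. The control group was kept in water alone, and the other groups were kept for 96 h, from about 48 h after fertilization, in lead(II) nitrate at a level of 210 or 630. The labels and the protocol give these levels in different units, so the groups are called lead 210 and lead 630. No strain or genotype is named, and the labels do not say whether the pools came from separate dishes or parents, and p-values thus reflect only how these pools vary, which may be technical.

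Libraries held 10.8 to 24.7 M counts (M, units of 1e+06); lead 630 A was the shallowest and lead 630 E the deepest. A count of 3, taken as the floor, corresponded to 0.122 to 0.277 counts per 1e+06 unscaled counts, a limit that covers counting error only. Levels below are in CPM (counts per 1e+06 counts, scaled by trimmed mean of M values). The mitosis rows held 159 to 6618 counts each over all 15 libraries (median 854), with mean levels of 0.614 to 26.0 CPM, and 2 rows had a mean under 1 CPM. Their median coefficient of variation between pools was 18.6% in controls, 18.2% at lead 210 and 20.7% at lead 630. Levels in CPM are not corrected for transcript length, so they are compared between groups for a gene and not between genes. Marker rows of muscle (ckm), retina (rho), neurons (elavl3), intestine (fabp2), cartilage (col2a1) and heart (nppa.L) were detected in these whole bodies, while the rows for liver (alb.S) and epidermis (itln1.L) lay under the filter. In whole bodies, fewer dividing cells and less mRNA per dividing cell cannot be told apart.

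As a group, the mitosis rows stood lower in the lead 210 libraries than in most controls. For each row the deviation of its log2 CPM from its own mean over the 15 libraries was taken, and the median over the 51 rows was read for each library. In controls A to E this median was 0.21, 0.11, -0.02, 0.19 and 0.38 on the log2 scale. At lead 210 it was -0.16, 0.02, -0.02, -0.16 and -0.16, and at lead 630 it was -0.25, -0.07, 0.14, -0.01 and 0.05. Control C lay among the lead libraries, and lead 630 C lay among the controls. The number of the 51 rows below their own mean was 6, 14, 27, 13 and 7 in controls, 38, 22, 28, 42 and 43 at lead 210, and 46, 29, 13, 28 and 22 at lead 630. The same median over all 27060 genes tested stayed between -0.01 and 0.02 in every library. Lead 630 A, the lowest library, was also the shallowest; the part of depth in its level was not tested.

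**Figure D1:**
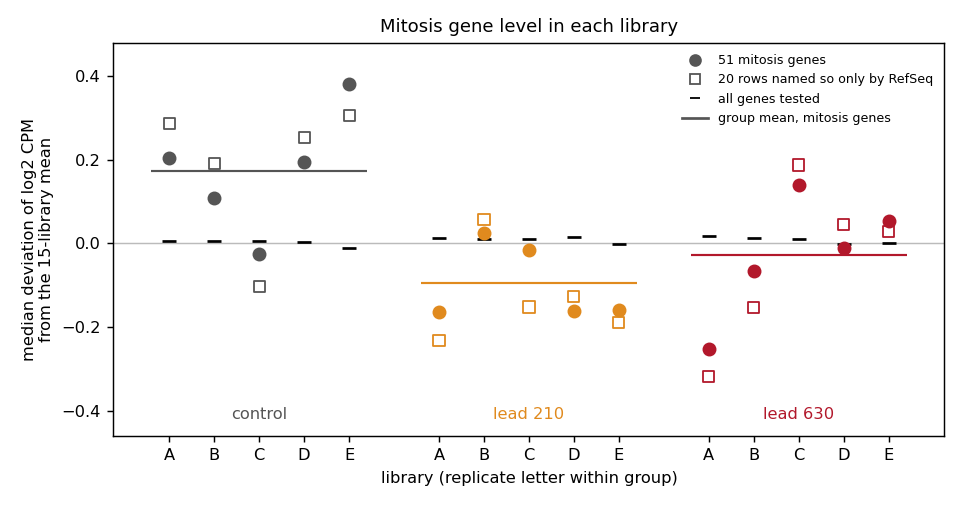
Median deviation of the 51 mitosis rows from their own mean log2 CPM (y axis) in each of the 15 libraries, by group (filled points; horizontal lines are group means, open squares the 20 tested rows named so by RefSeq alone, dashes all genes). The filled points of controls range from -0.02 to 0.38, lead 210 from -0.16 to 0.02 and lead 630 from -0.25 to 0.14, so the groups overlap.

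Lead 210 was compared with control to ask which mitosis genes differ at the lower level. Cdk1, the kinase that drives entry into mitosis, and Incenp, the scaffold of the chromosomal passenger complex, had a row each that fell, cdk1.L and incenp.L. By edgeR's quasi-likelihood test with Benjamini-Hochberg adjustment over all genes tested, 2 of 51 rows (3.92%) were lower at an adjusted p under 0.05, against 0.144% of all genes, and 0 were higher, against 1.76% of all genes. DESeq2 called 3 rows lower and limma-voom 1, and both called 0 higher. In either direction DESeq2 called 782 of all genes at lead 210, against 515 by edgeR. Here and below, shares of all genes called are edgeR's unless another source is named. No such share is given for DESeq2 or limma-voom, so their counts cannot be read against edgeR's shares. At an unadjusted p under 0.05, 12 rows were lower and 0 higher, or 23.5% lower against 4.84% of all genes, where 8.01% were higher. A negative log2 fold change was seen in 47 of 51 rows (92.2%), against 50.5% of all genes. The median log2 fold change was -0.26 over the 51 rows and -0.00 over all genes. Without control C the median was -0.34 and without control E it was -0.21. The 95% interval of the fold change left out a fall of 2-fold or more in 46 of the 51 rows.

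The 5 cdk1.L values in controls (Entrez 379785) were 7.78, 6.32, 7.28, 8.34 and 8.75 CPM. At lead 210 they were 5.15, 6.15, 6.19, 5.04 and 3.71 CPM, and at lead 630 they were 5.86, 5.31, 6.62, 5.87 and 5.84 CPM. All 5 lead 210 libraries and 4 of 5 lead 630 libraries lay under the lowest control. The log2 fold change was -0.56 ± 0.13 (SE) at lead 210 (adjusted p = 0.0349), from 7.69 ± 0.950 to 5.25 ± 1.01 CPM (SD, n = 5 each), and -0.38 ± 0.13 at lead 630 (adjusted p = 0.18). Leaving out 1 library ended the call at lead 210 in 7 of 10 cases: without control A, C, D or E, or without lead 210 A, D or E (adjusted p up to 0.0982). The call also ended in a fit on these 10 libraries alone (adjusted p = 0.0752) and when the replicate letter was added to the fit (adjusted p = 0.0504).

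For incenp.L (Entrez 398105) controls stood at 11.2, 12.9, 10.8, 12.5 and 13.4 CPM. Lead 210 libraries stood at 6.96, 8.12, 10.3, 8.86 and 6.24 CPM, all under the lowest control, and lead 630 libraries at 6.31, 9.80, 11.5, 10.8 and 9.90 CPM. The log2 fold change was -0.58 ± 0.15 at lead 210, with an adjusted p of 0.049997, at the threshold itself, and -0.31 ± 0.14 at lead 630 (adjusted p = 0.362). The call at lead 210 held in 1 of 10 leave-one-out fits, that without lead 210 C, and the adjusted p reached 0.146 in the others. It also ended with no filter (0.0501), with limma-voom (0.051) and with the counts of both copies summed (0.0574).

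The ranges of lead 210 and control did not overlap, with lead 210 lower, in 7 of 51 rows (13.7%), against 1.06% of all genes. Besides cdk1.L and incenp.L these were kif20a.L, ube2c, aurka.L, ccnb1 and kif2c.S, the last 3 singled out after their values were seen. The product of kif20a is a kinesin of the central spindle: kif20a.L was at 5.43, 5.54, 4.80, 4.61 and 7.26 CPM in controls and at 4.13, 4.10, 3.98, 4.09 and 4.18 CPM at lead 210. Its lead 210 pools lay within a narrow band just under the lowest control, and at lead 630 it was at 3.57, 3.80, 5.70, 4.35 and 4.39 CPM, with lead 630 C inside the control range. Its log2 fold changes were -0.43 ± 0.15 at lead 210 (adjusted p = 0.181) and -0.33 ± 0.14 at lead 630 (adjusted p = 0.331). The product of ube2c is the ubiquitin-conjugating enzyme of the anaphase-promoting complex, and this row was at 2.06, 2.27, 2.27, 2.83 and 1.99 CPM in controls and at 1.67, 1.98, 1.55, 1.18 and 1.33 CPM at lead 210 (-0.58 ± 0.19, adjusted p = 0.154). Its highest lead 210 value, in library B, lay just under its lowest control.

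**Figure D2:**
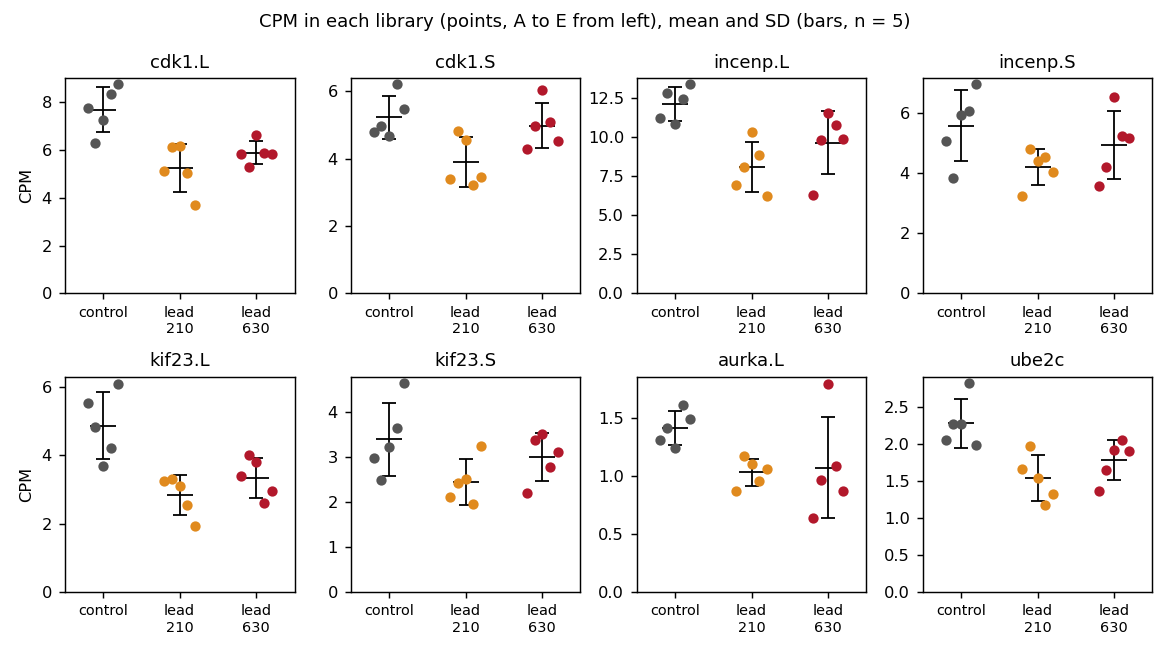
Level in CPM (y axis) of single mitosis rows in each library, by group, with the mean and SD of the 5 libraries as bars. For cdk1.L and incenp.L all 5 lead 210 libraries lie under the lowest control, and 1 lead 630 library of each lies within the control range.

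Lead 630 was compared with control to ask the same at the higher level. No mitosis row passed: by edgeR's quasi-likelihood test 0 of 51 rows were lower, against 0.303% of all genes, and 0 were higher, against 1.98%. At an unadjusted p under 0.05, 10 rows were lower (19.6%, against 4.62% of all genes) and 0 higher, against 8.32%. DESeq2 called 1 row lower, kif4a.L (adjusted p = 0.0488), and limma-voom called 0. A negative log2 fold change was seen in 42 of 51 rows (82.4%), against 51.3% of all genes, and the median was -0.17, against -0.01 for all genes. The median was -0.09 without lead 630 A and -0.26 without lead 630 C, so single libraries moved it by more than 1.5 times. In 0 rows did all lead 630 libraries lie under all controls, against 0.983% of all genes. The 95% interval left out a 2-fold fall in 49 of 51 rows.

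The chromokinesin gene kif4a, whose product works on chromosome arms and at the central spindle, had the lowest p at lead 630. Controls of kif4a.L (Entrez 394332) were at 7.15, 7.10, 6.53, 7.61 and 7.26 CPM, lead 630 libraries at 4.12, 4.35, 6.54, 4.72 and 5.59 CPM, and lead 210 libraries at 5.22, 7.32, 6.41, 4.95 and 5.90 CPM. At lead 630 libraries A, B, D and E lay under all controls and library C sat at the lowest control. The log2 fold change was -0.47 ± 0.14 (adjusted p = 0.0904). The row passed in 1 of 10 leave-one-out fits, that without lead 630 C (adjusted p = 0.0299), and the adjusted p reached 0.195 in the others. At lead 210 it was -0.26 ± 0.14 (adjusted p = 0.436).

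Both lead comparisons use the same 5 controls, so their values are given side by side and not as separate support. With both lead groups set against control in 1 contrast, 1 of 51 rows (1.96%) was lower, cdk1.L (-0.47 ± 0.11, adjusted p = 0.0269), against 0.443% of all genes, and 0 were higher, against 2.59%. DESeq2 called 4 rows lower and limma-voom 1, and both called 0 higher. The cdk1.L call ended without control A, D or E (adjusted p up to 0.095). At an unadjusted p under 0.05, 13 rows were lower (25.5%, against 5.58% of all genes) and 0 higher, against 9.09%. The fold change was negative in 48 of 51 rows (94.1%), against 51.9% of all genes, and in 42 without control E. The median was -0.23, against -0.01 for all genes.

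Between the lead levels themselves no row passed. For lead 630 against lead 210, edgeR's quasi-likelihood test called 0 rows lower, against 0% of all genes, and 0 higher, against 0%; DESeq2 and limma-voom also called 0 of the 51. At an unadjusted p under 0.05, 3 rows were higher (cdk1.S, top2a.L and kif15.L), against 2.14% of all genes, and 1 lower (cdc25b.S), or 1.96% of the 51 rows against 2.52% of all genes. The fold change was positive in 37 of 51 rows (72.5%), against 51.1% of all genes, with a median of 0.12 that was 0.04 without lead 630 C. The lowest p belonged to cdk1.S (0.37 ± 0.15, adjusted p = 0.932), at 3.41, 4.83, 4.57, 3.23 and 3.45 CPM at lead 210 and 4.3, 4.97, 6.03, 5.08 and 4.51 CPM at lead 630, ranges that overlap. A greater or smaller fall at one lead level than at the other is therefore not shown for any mitosis gene.

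Kinases, phosphatases and cyclins of mitotic entry made up 12 rows. Here and for the other roles, passing refers to edgeR's test. Of these 12, 1 (cdk1.L, 8.33%) fell at lead 210, against 0.144% of all genes. At lead 630 0 passed, against 0.303% of all genes lower. The fold change was negative in 11 rows at each level, with a median log2 fold change of -0.35 at lead 210 and -0.29 at lead 630. The other homeolog, cdk1.S, was at 4.80, 4.97, 4.67, 6.23 and 5.49 CPM in controls, so that 4 of 5 lead 210 libraries lay under its lowest control (-0.43 ± 0.15, adjusted p = 0.187), with a value of -0.06 ± 0.14 at lead 630 (adjusted p = 0.923). The Polo-like kinase gene plk1, whose product acts in spindle assembly and mitotic entry, had plk1.S at 4.4, 4.69, 4.09, 5.26 and 5.82 CPM in controls, 2.61, 4.10, 5.38, 3.23 and 3.45 CPM at lead 210 and 2.20, 3.66, 4.57, 3.21 and 3.23 CPM at lead 630. At lead 630 all but library C lay under the lowest control (-0.50 ± 0.19, adjusted p = 0.252). The phosphatase rows cdc25b.L and cdc25b.S held the highest CPM of this role: cdc25b.S had -0.28 ± 0.09 at lead 630 (18.6 ± 1.77 to 15.3 ± 1.56 CPM, adjusted p = 0.128) and -0.09 ± 0.09 at lead 210, and cdc25b.L had -0.14 ± 0.07 and -0.10 ± 0.07. Among the cyclins, which activate Cdk1, log2 fold changes at lead 210 and 630 were -0.39 and -0.39 for ccna2.L, -0.33 and -0.14 for ccnb1, -0.26 and -0.35 for ccnb2.S and -0.45 and -0.29 for ccnb3.S, and none passed. The kinase row aurka.L had -0.45 and -0.34, and cdc25c.S had -0.25 and -0.06. The 1 positive row of the role, cdc25c.L (Entrez 397737; 0.09 and 0.20), is named rab5d.L by RefSeq, a gene of membrane traffic; without it 47 of 50 rows were negative at lead 210 and 42 of 50 at lead 630.

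The chromosomal passenger complex, which corrects faulty attachments and later moves to the central spindle, had 4 rows, all negative at each level. The medians were -0.45 at lead 210 and -0.26 at lead 630. At lead 210 1 row passed (25%, against 0.144% of all genes lower). This was incenp.L, whose adjusted p lay at the threshold, as given above. At lead 630 0 passed, against 0.303% of all genes lower. The scaffold's other copy, incenp.S, went from 5.59 ± 1.19 CPM in controls to 4.22 ± 0.605 at lead 210 (-0.41 ± 0.18, adjusted p = 0.329) and 4.95 ± 1.13 at lead 630 (-0.16 ± 0.17). The rows of its kinase, aurkb.L and aurkb.S, had -0.39 ± 0.20 and -0.50 ± 0.27 at lead 210 and -0.24 ± 0.19 and -0.27 ± 0.27 at lead 630.

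Rows of the spindle checkpoint and of anaphase numbered 10, and none passed at either level; 9 were negative at lead 210 and 7 at lead 630, with medians of -0.16 and -0.06. The checkpoint kinase row bub1.L had -0.14 ± 0.17 and -0.03 ± 0.17, its partner bub3.L -0.10 ± 0.09 and 0.05 ± 0.09, bub1b.L -0.19 ± 0.20 and 0.10 ± 0.19, mad2l1.S -0.38 ± 0.22 and -0.03 ± 0.21 and the checkpoint kinase row ttk.S -0.07 ± 0.20 and 0.02 ± 0.20. The activator rows cdc20 and cdc20.L had -0.00 and -0.24 at lead 210 and -0.24 and -0.08 at lead 630. The separase gene espl1, whose product cuts cohesin at anaphase, had -0.39 ± 0.30 at lead 210 and -0.64 ± 0.31 at lead 630 in espl1.S (adjusted p = 0.378), the lowest fold change of the 51 rows at lead 630, at a level of 1.60 ± 0.683 CPM in controls. The copies of ube2c parted at lead 210, with -0.58 for the row without a letter and 0.10 for ube2c.S.

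Kinetochore and centromere rows numbered 4, and none passed. The Ndc80 complex, which binds microtubules, had ndc80.L at -0.21 ± 0.15 and -0.17 ± 0.15, nuf2.L at -0.21 ± 0.20 and 0.19 ± 0.19 and nuf2.S at -0.22 ± 0.27 and 0.03 ± 0.26 at lead 210 and 630. The gene of the centromeric histone variant, cenpa.L, varied widely between controls (3.37, 3.34, 2.44, 1.86 and 5.26 CPM) and had 0.05 ± 0.26 and -0.04 ± 0.25.

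Spindle motors and assembly factors had 9 rows, of which 8 were negative at lead 210 and 6 at lead 630 (medians -0.26 and -0.14), and none passed by edgeR, while DESeq2 called kif4a.L at lead 630, as given above. The bipolar kinesin gene kif11, whose product pushes spindle poles apart, had kif11.S at 10.8, 6.96, 8.06, 7.77 and 6.37 CPM in controls and 5.22, 6.07, 7.52, 4.50 and 4.25 CPM at lead 210. At lead 210, 4 libraries lay under the lowest control and library C did not. The fold changes were -0.55 ± 0.17 at lead 210 (adjusted p = 0.137) and -0.42 ± 0.17 at lead 630 (adjusted p = 0.271), and kif11.L had -0.21 ± 0.18 and -0.43 ± 0.18. The microtubule nucleation factor row tpx2.S had -0.36 ± 0.16 and -0.33 ± 0.16, and tpx2.L -0.13 ± 0.17 and 0.10 ± 0.17. The microtubule depolymerase row kif2c.S had -0.31 and -0.14, kif15.L -0.53 and 0.04 and kif15.S -0.23 and -0.11, while kif18a.L, whose product limits chromosome movement at the metaphase plate, had 0.06 and 0.24.

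Cytokinesis rows numbered 6, all negative at each level (medians -0.29 and -0.28), and none passed. The spindle-bundling protein row prc1.S had -0.11 ± 0.19 and -0.16 ± 0.19, the anillin row anln.L -0.29 ± 0.21 and -0.24 ± 0.21, the centralspindlin kinesin row kif23.S -0.48 ± 0.19 and -0.17 ± 0.19, and the RhoA activator rows ect2 and ect2.S -0.30 and -0.07 at lead 210 and -0.32 and -0.36 at lead 630. Mitotic chromosome structure had 6 rows, all negative at each level (medians -0.29 and -0.16), and none passed by edgeR, while DESeq2 called smc2.L lower at lead 210 (adjusted p = 0.0207). The topoisomerase row top2a.L was at 27.8, 26.6, 21.2, 30.4 and 32.2 CPM in controls and 19.4, 25, 24.4, 21.5 and 17.2 CPM at lead 210 (-0.36 ± 0.12, adjusted p = 0.198), and at lead 630 it had -0.09 ± 0.12. The values of lead 210 A and E lay under all controls, and the other 3 lay above control C, the lowest control. The condensin subunit rows smc2.L, smc4.L, ncapg.L and ncaph.S had -0.48 ± 0.13 (adjusted p = 0.0708), -0.21 ± 0.15, -0.17 ± 0.14 and -0.58 ± 0.28 at lead 210, and -0.25, -0.16, -0.15 and -0.35 at lead 630. The proliferation marker row mki67.S, whose product coats mitotic chromosomes, was at 14.2, 12.6, 13.7, 17.1 and 16.8 CPM in controls, 14.8, 14.9, 13.3, 14.5 and 13.9 CPM at lead 210 and 14.4, 12.4, 17.4, 14.6 and 15.2 CPM at lead 630, with fold changes of -0.06 ± 0.10 and -0.00 ± 0.10. The ranges of the 3 groups overlap in this row. Its other copy mki67.L, named so by RefSeq alone, was added after its values were seen. That copy was at 16.4 ± 1.67 CPM in controls, 13.9 ± 1.47 at lead 210 and 16.2 ± 1.34 at lead 630. Its log2 fold changes were -0.23 and -0.01, neither passing, and 3 lead 210 libraries lay under its lowest control.

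**Figure D3:**
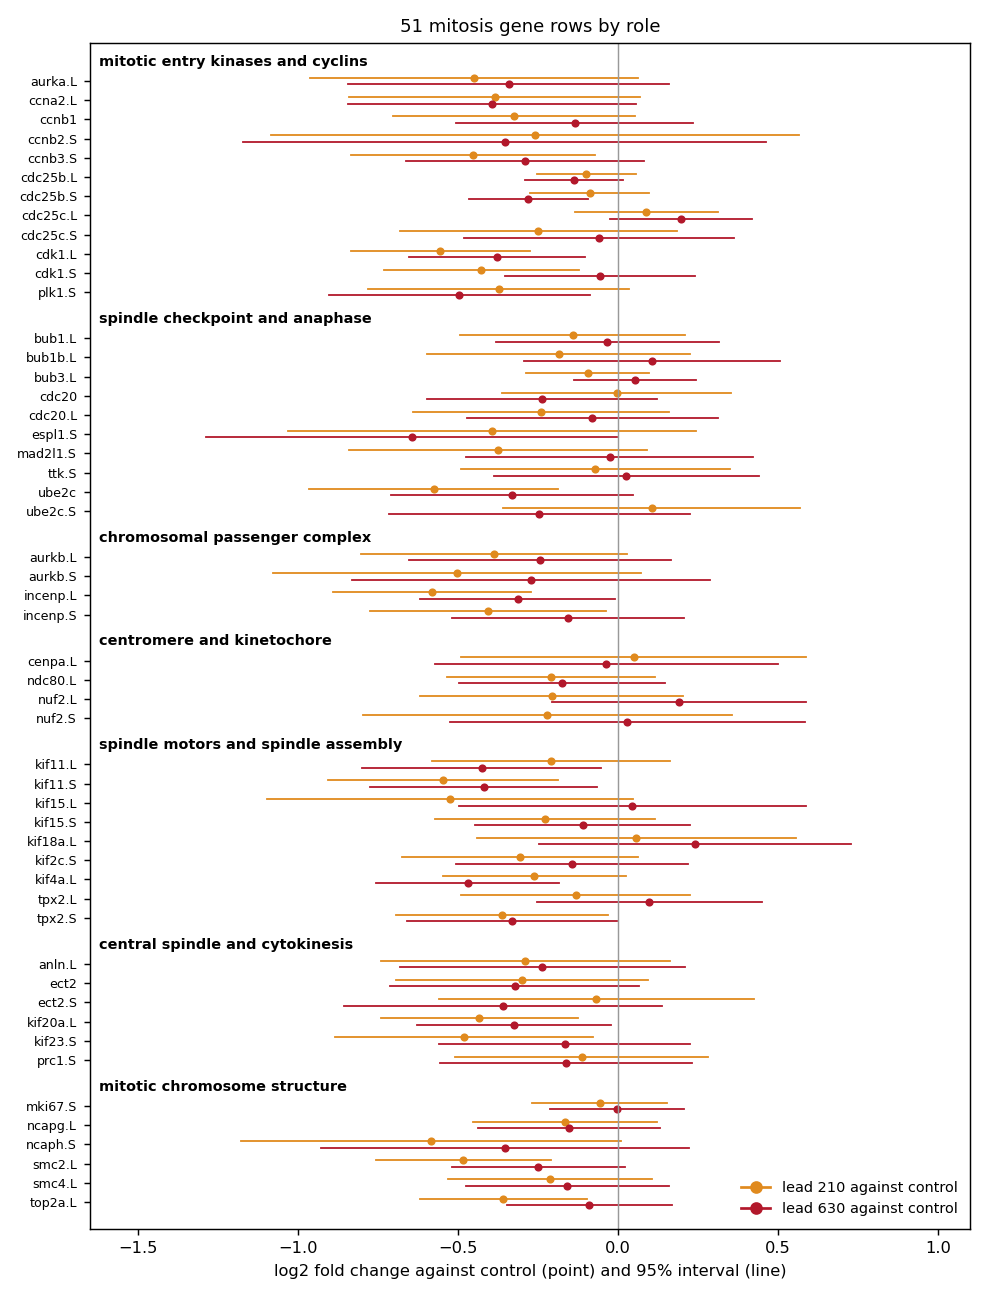
Log2 fold change against control (x axis) of the 51 mitosis rows by role, at lead 210 and lead 630, with 95% intervals as lines. Most points lie left of 0, with 47 of 51 negative at lead 210 and 42 of 51 at lead 630, and the passenger complex has the lowest median at lead 210 (-0.45).

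RefSeq symbols and the authors' symbols did not always match, and 8 of the 51 rows carry another symbol in RefSeq. Among these, kif4a.L is kif4a.S in RefSeq, ndc80.L (Entrez 398429) is ndc80.S, and cdc25c.S (Entrez 398119) is cdc25c.L. The row ccnb1 (Entrez 379888) is ccnb1.2.L there, a name apart from RefSeq's ccnb1.L and ccnb1.S. The names ndc80.L and cdc25c.S belong to other rows there (Entrez 779317 and 100337563). A further 24 rows are these genes by RefSeq symbol alone. Of those 24, 20 passed the filter. At each level 18 of the 20 (90%) were negative, against 50.5% of all genes at lead 210 and 51.3% at lead 630. Their medians were -0.25 at lead 210 and -0.18 at lead 630. By edgeR 1 of the 20 (5%) was lower at lead 210, against 0.144% of all genes, and 0 at lead 630, against 0.303%. The centralspindlin kinesin row kif23.L, a name from RefSeq chosen after its values were seen, was at 5.55, 4.83, 3.68, 4.21 and 6.09 CPM in controls, 3.26, 3.29, 3.10, 2.54 and 1.92 CPM at lead 210 and 3.39, 4.0, 3.81, 2.60 and 2.94 CPM at lead 630. All lead 210 libraries lay under the lowest control. Its log2 fold change was -0.79 ± 0.18 at lead 210, which passed (adjusted p = 0.0252), and -0.54 ± 0.18 at lead 630 (adjusted p = 0.149); leaving out control A, control B, control E, lead 210 D or lead 210 E ended the call (adjusted p up to 0.0813). Rows of 2 kinetochore genes that the rule missed had -0.48 ± 0.23 (cenpe.L) and -0.51 ± 0.20 (cenpf.L) at lead 210, neither passing. The rows espl1.L and mad2l1.L were also chosen after their values were seen. In both, all lead 210 libraries lay under the lowest control. Among the 20 tested rows only these and kif23.L did so. This held in 1.06% of all genes, a share that cannot be set against rows picked by their values. Their log2 fold changes were -0.83 and -0.63 at lead 210 and -0.46 and -0.06 at lead 630, and neither row passed. The rows birc5.L and birc5.S lay under the filter, as did RefSeq's ccnb1.L and ccnb1.S, with 2 counts each over the 15 libraries. The gene pttg1 was in neither source of names.

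By RefSeq symbols, 29 genes had both homeologs tested. Both copies were negative in 26 of 29 pairs at lead 210 and in 23 at lead 630, and the copies had opposite signs in 3 and 4. The same share over all homeolog pairs was not computed, so these counts cannot be read as particular to the mitosis genes. The median absolute difference between copies was 0.20 at lead 210 and 0.14 at lead 630. The SE of such a difference, taking copies as independent, ran from 0.11 (cdc25b) to 0.54 (ccnb2) at lead 210. At lead 630 it ran from 0.11 to 0.55 in the same genes. Differences between copies were not tested. The widest gap was in the condensin gene smc2. Its .S copy, which did not pass, was at 1.54, 1.56, 1.2, 1.78 and 2.22 CPM in controls, 1.96, 2.20, 1.84, 2.45 and 3.25 CPM at lead 210 and 1.37, 3.24, 2.85, 2.54 and 2.40 CPM at lead 630. The fold changes of smc2.S were 0.51 ± 0.23 (adjusted p = 0.355) and 0.61 ± 0.23 (adjusted p = 0.227), against -0.48 and -0.25 for smc2.L. How reads shared by 2 copies were counted is not given in the sources used here, so values of single copies are uncertain. With copies summed, the 51 rows became 40 units. Of these, kif23 (-0.66 ± 0.14, adjusted p = 0.0111) and cdk1 (-0.51 ± 0.12, adjusted p = 0.0298) fell at lead 210, and incenp (-0.53, adjusted p = 0.0574) did not pass. The kif23 sum includes kif23.L, a row outside the 51. The share of all genes called in the summed fit is not given.

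**Figure D4:**
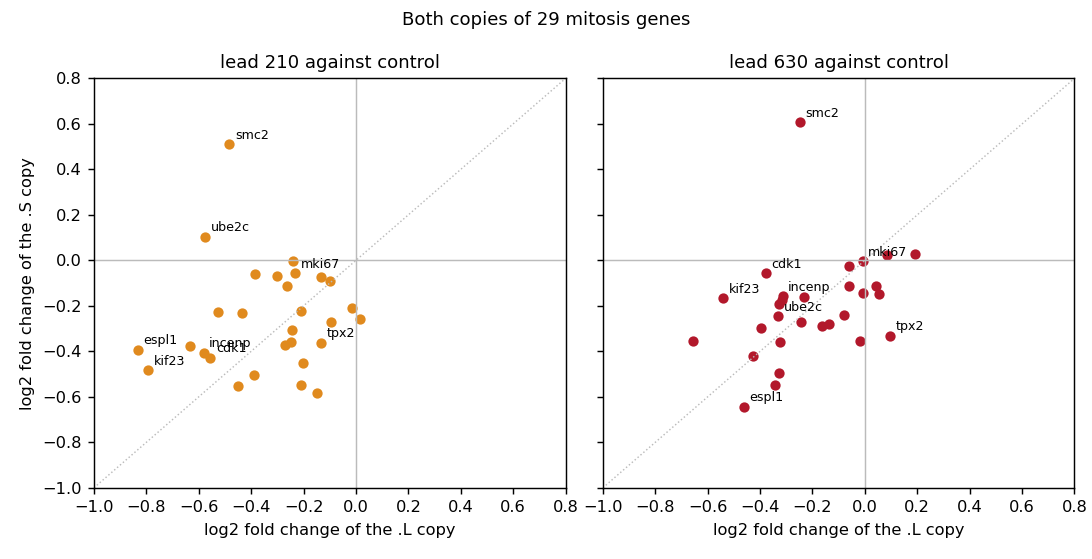
Log2 fold change against control of the .L copy (x axis) and the .S copy (y axis) of 29 genes, at lead 210 and lead 630, with equal values on the dotted line. Most pairs lie where both copies are negative (26 and 23 of 29), and smc2 stands apart with its .L copy below 0 and its .S copy above.

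Genes outside the 51 rows were read from further lists. Of 98 other mitosis rows tested, 0 passed at either level by edgeR, with medians of -0.12 at lead 210 and -0.05 at lead 630. Before adjustment (p under 0.05) 10 were lower and 0 higher at lead 210 and 10 lower and 1 higher at lead 630, or 10.2% lower at each level against 4.84% and 4.62% of all genes. DESeq2 called 1 of them lower at lead 630 and 0 at lead 210, and limma-voom called 0 at each level. In DNA replication, which precedes mitosis, 1 of 54 rows fell at lead 210, against 0.144% of all genes, and 0 at lead 630 (medians -0.12 and -0.04): the helicase subunit row mcm5.S, at -0.64 ± 0.16 (adjusted p = 0.0397). Its values were 5.72, 6.04, 4.46, 6.15 and 6.21 CPM in controls and 4.06, 4.61, 2.88, 3.14 and 3.58 CPM at lead 210, and only library B overlapped the control range. At lead 210 DESeq2 called 1 of the 54 lower and limma-voom called 0, so the mcm5.S call was lost with limma-voom, and at lead 630 both called 0. Replication rows at an unadjusted p under 0.05 numbered 5 lower and 0 higher at lead 210 and 5 lower and 2 higher at lead 630, or 9.26% lower at each level. Of 44 rows of cell-cycle regulators 0 passed at either level by edgeR, DESeq2 or limma-voom, with medians of -0.02 and -0.05. Without adjustment 1 was lower (2.27%, under the 4.84% of all genes) and 2 higher at lead 210 (p under 0.05), and 0 were lower and 0 higher at lead 630.

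Markers of other cell types were read beside these values. Of 10 multiciliated cell rows tested (of 13 listed), 0 passed by edgeR at either level, 8 were negative at each level, and the medians were -0.24 and -0.21. Without adjustment 3 of the 10 were lower at lead 210 and 2 at lead 630 (p under 0.05; 30% and 20%, against 4.84% and 4.62% of all genes), with 0 higher; DESeq2 called 1 lower at lead 210 and 0 at lead 630, and limma-voom called 0. The summed level of the list was 54.3 to 69.9 CPM in controls, 46.2 to 56.8 CPM at lead 210 and 48.1 to 57.6 CPM at lead 630. In mouse, multiciliated cells are known to use part of the mitotic machinery while they amplify centrioles; their part in the result was not tested. The summed level of 12 neural and retinal progenitor rows was 320.2 to 404.8 CPM in controls, 297.7 to 371.0 CPM at lead 210 and 301.5 to 401.7 CPM at lead 630, with medians of -0.06 and -0.01. That of red blood cell markers was 51.8 to 75.5, 66.8 to 76.3 and 65.4 to 81.7 CPM, and that of germ cell markers, of which 1 of 7 rows (ddx4.L) passed the filter, was 12.1 to 13.0, 12.6 to 14.7 and 11.7 to 15.5 CPM. The 10 whole-body marker rows tested had medians of -0.28 at lead 210 and -0.16 at lead 630, beside -0.26 and -0.17 for the mitosis rows. By edgeR 0 of the 10 passed at lead 210 and 1 (10%) was lower at lead 630, against 0.303% of all genes. This was the cartilage row col2a1.L (-0.56 ± 0.12, adjusted p = 0.0145). DESeq2 called 2 lower at each level, and limma-voom 0 at lead 210 and 1 at lead 630. Without adjustment (p under 0.05) 6 were lower and 1 higher at lead 210, and 3 lower and 2 higher at lead 630. The lower shares were 60% and 30%, against 4.84% and 4.62% of all genes and 23.5% and 19.6% of the mitosis rows. Of all genes, 8.01% and 8.32% were higher. The 6 at lead 210 were rows of muscle (ckm.S), cartilage (col2a1.L and col2a1.S), neurons (elavl3.L) and photoreceptors (rho.L and rho.S), and the higher one was the intestinal row fabp2.L. The median deviation of this list per library was 0.0726 to 0.136 in controls and -0.153 to 0.0682 at lead 210, which do not overlap, and -0.17 to 0.153 at lead 630. A difference between these tissue markers and the mitosis rows was not tested. No row of these lists was at 0 in all libraries. The part of any of these cell types in the level of the mitosis rows was not tested.

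**Figure D5:**
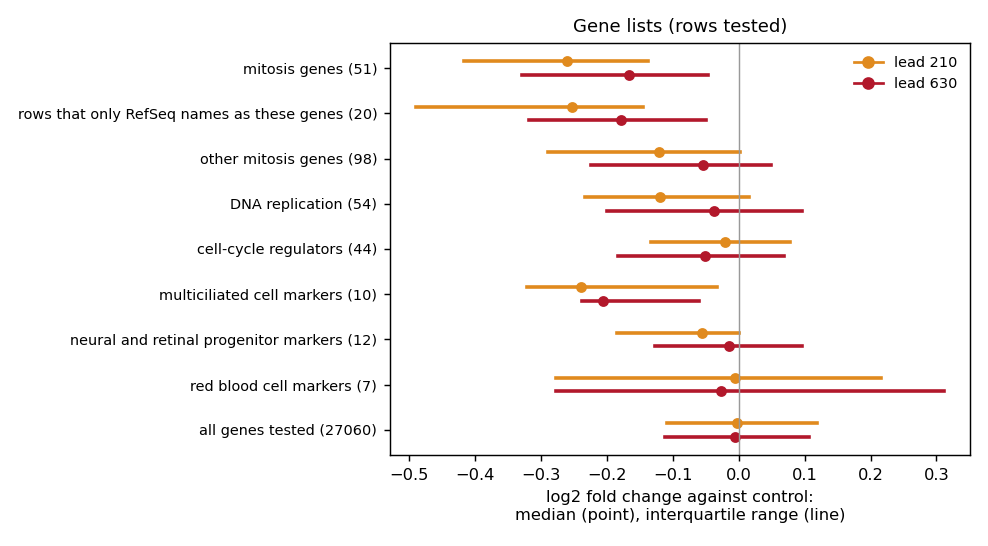
Median log2 fold change against control (point) and interquartile range (line) of the mitosis rows and of other lists, at lead 210 and lead 630. The whole-body markers (medians -0.28 and -0.16) and the germ cell markers are not drawn. The mitosis rows have medians of -0.26 and -0.17, the other mitosis rows -0.12 and -0.05, and the multiciliated rows -0.24 and -0.21.

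Per the authors' deposited table, 3 of the 51 rows were lower at an adjusted p under 0.05 at lead 210 (incenp.L, adjusted p = 0.0154; cdk1.L, 0.0155; smc2.L, 0.0494), against 0.39% of all genes in that table, and 0 at lead 630, against 0.587%. The same source, the authors' deposited table, gave negative values for 47 of 51 rows at lead 210 and 41 at lead 630, with medians of -0.27 and -0.17.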

How the data were processed

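Libraries were poly(A)-selected and directional, per the labels' protocols. Per the submitters' processing notes, edgeR, HISAT2, kallisto and Trim Galore were used, with no versions named. The build, annotation, read counter and strandedness of counting were not given in the sources used here. Without them, reads of homeologs, other near-identical copies and overlapping antisense genes cannot be told apart with certainty.

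Raw counts per Entrez gene were deposited by the authors as 1 table for the 15 libraries, in which 3220 of 37018 rows held no count. The authors also deposited 2 tables of their comparisons with control, 28950 genes each, holding log2 fold changes and log2 mean levels, a likelihood-ratio score, and raw and adjusted p-values. RefSeq symbols (assembly Xenopus_laevis_v10.1) matched 33597 identifiers. Coordinates are left out, since the counts name no build.

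Counts were filtered by group with filterByExpr and scaled by TMM (factors 0.977 to 1.03). One edgeR 4.0.16 quasi-likelihood fit (R 4.3.3, robust dispersion) over all 15 libraries had the group as its only term, with Benjamini-Hochberg adjustment over 27060 genes and calls under 0.05. Library levels used log2 CPM with a prior count of 2. Values are mean ± SD over 5 pools and log2 fold change ± SE. The fit was also run on data simulated from the mean levels and spread of these libraries, which bears on the code and not on the calls given here. In a duplicate check over 30 pairs within groups, the chi-square statistic per gene ran from 4.19 to 17.3, so none agreed within sampling noise.

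The members, the roles and the other lists were chosen with earlier results of these data known, so no p is given for a list. Named rows were those called in any comparison, those with the lowest p up to 6 per comparison, and the 2 with the highest CPM in each role; values of other members are given to account for all. From other lists called genes were named. Alternatives were no filter, DESeq2's size factors, DESeq2 1.42.0, limma-voom (limma 3.58.1), the replicate letter as a block, 2 groups alone, summed homeologs and each library left out. Those without cdc25c.L and with rows named only by RefSeq were added after seeing the data.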

Additional observations from a re-analysis of the deposited data

How the results depend on the processing

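No mitosis row changed the sign of a called difference under any alternative run. At lead 210 the number of lower rows, 2, was 1 with no filter, 1 with limma-voom, 1 with 2 groups alone and 1 with the replicate block, and 0 to 4 when single libraries were left out. At lead 630 the number, 0, was 1 with DESeq2 and 0 to 1 without single libraries. For both lead levels against control the number, 1, was 2 with the replicate block, 4 with DESeq2 and 0 to 3 without single libraries. It was 2 of 40 units with homeologs summed, and 2 of 71 rows with those that only RefSeq names. The number of all genes called at lead 210, 515, was 782 with DESeq2 and 355 to 488 without single libraries; that for both levels, 820, was 539 to 952; and that for lead 630 against lead 210, 0, was 6 with DESeq2 and 0 to 1 without single libraries. The cause of these shifts was not tested, other than that a left-out library removes a pool and summing merges rows. With the replicate block cdk1.L had an adjusted p of 0.0504 at lead 210 and incenp.L one of 0.0277 for both levels. Over all genes the block gave 691 calls at lead 210, 748 at lead 630 and 1030 for both levels. Without it these were 515, 617 and 820. The labels do not say what the letters A to E stand for, so the libraries were not treated as paired in the main fit. Not every pair with the same letter correlated above 0.1. Of 15 pairs with the same letter, 8 had deviations correlated above 0.1 (range -0.12 to 0.31, against -0.37 to 0.32 for other pairs), and 6 libraries correlated best with their own letter. All pairs of letters A and E exceeded 0.1 and none of C or D did. Among pairs of unlike letters the highest value was that of control E with lead 630 D (0.32). The lowest was that of control A with lead 210 E (-0.37). On the first principal component of log2 CPM (20.3% of the variance), libraries A and B scored lower than D and E in each group. A shared source for some letters was not tested. Medians of the mitosis rows ranged, without single libraries, from -0.34 to -0.21 at lead 210, -0.26 to -0.09 at lead 630, -0.26 to -0.18 for both levels and 0.04 to 0.17 for lead 630 against lead 210. Depth limits the rows near 1 CPM, whose SEs reached 0.39 against control and 0.40 for lead 630 against lead 210.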
